A study of Mus musculus with 2 samples.

Results

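The 9 genes described here, Inhba, Tgfb1, Tgfbi, Tgfbr1, Tgfbr2, Acvr1, Acvr2a, Smad3 and Smad7, belong to activin and TGF-beta signalling and were taken by symbol from the 31053 genes of the count matrix. They were chosen by a measured value: Inhba had a higher level in macrophages of the library labelled KO, so that difference is given as a description and was not tested. Live CD45+ cells had been sorted from B16 melanomas of 8-week-old mice and profiled with 10x Genomics Chromium 3' v3 chemistry, which counts each captured mRNA molecule once by a unique molecular identifier (UMI). The WT library came from Mettl3 fl/fl Lyz2+/+ mice and the KO library from Mettl3 fl/fl Lyz2 cre/+ mice, so both carried the floxed allele, and each was 1 library pooled from several mice. Mettl3 encodes the methyltransferase that writes m6A on RNA, and Lyz2-driven Cre acts in macrophages, monocytes and granulocytes, but not in lymphocytes or in the inoculated melanoma cells.

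Activins and TGF-betas are secreted dimers that bring type II and type I receptor kinases together on the target cell. The type I receptor then phosphorylates Smad2 and Smad3, which enter the nucleus with Smad4, while inhibitory Smads such as Smad7 are induced in turn and damp the signal. In tumours, macrophages are a known source of these ligands, and TGF-beta is known for restraining T cells. Inhba encodes the beta A subunit, whose homodimer is activin A, and its promoter is shown because the results turn on this gene. The 250 bases before its start (RefSeq, GRCm38.p6, chr13:16011601-16011850, plus strand) run 5′ to 3′ as follows, with the only match to a searched motif in capitals.

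Inhba: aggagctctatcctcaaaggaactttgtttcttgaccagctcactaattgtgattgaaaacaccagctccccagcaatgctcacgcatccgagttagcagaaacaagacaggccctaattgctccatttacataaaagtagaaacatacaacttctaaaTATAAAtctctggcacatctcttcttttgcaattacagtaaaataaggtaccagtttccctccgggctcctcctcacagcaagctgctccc

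The capitals are the letters TATAAA, the motif searched for as the TATA box, 91 bases before the start. The search took a match anywhere in the window. Both strands of this window were also searched for the AP-1 site TGANTCA, the hypoxia response core ACGTG and the Smad box CAGAC, which it did not hold. Of 32851 promoter windows of the same length, 12.4% held the TATA box letters, 6.75% the AP-1 site, 16.6% the hypoxia response core and 42.2% the Smad box. The table held windows for 8 of the 9 genes, all but Smad7: Inhba alone held the TATA box letters, and 3 (Tgfbi, Tgfbr2 and Acvr2a) the Smad box. A match describes letters and is not a bound site.

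The libraries held 45963969 UMIs in 5895 barcodes labelled WT and 54052317 UMIs in 8446 labelled KO, of which 5405 and 7625 cells were kept. The median depth was 4148 UMIs per cell in the library labelled WT and 3567 in that labelled KO, and 13 barcode sequences occurred in both libraries. Mettl3 was not lower in macrophages of the library labelled KO, with a level per 1000000 UMIs of the class (CPM) of 9.70 labelled WT and 10.7 labelled KO. The 3' chemistry counts a transcript that lacks an internal exon like an intact one, so Mettl3 does not check the labels. Lyz2, whose locus carries the Cre in KO mice, had 5944 CPM in macrophages labelled WT and 2691 CPM in those labelled KO. With 1 library per genotype there was no test between genotypes: intervals below are exact 95% Poisson intervals of the summed UMIs, and they cover counting error only, not the spread between mice.

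Each cell was placed in a class by its marker genes, and 13 classes had at least 50 cells in both libraries. All 9 macrophage markers and all 8 monocyte markers were at 50 CPM or more in the classes they named, in both libraries. There were 1890 macrophage-gated cells labelled WT and 2325 labelled KO, and 892 and 2286 monocyte-gated cells. The cells labelled KO were shallower in both classes, with medians of 6580 UMIs against 9090 in macrophages and 3484 against 4346 in monocytes. Granulocyte markers summed to 936 CPM in macrophages labelled WT and 269 CPM in those labelled KO, and monocyte markers to 856 and 1318 CPM. Whether these shifts had a part in the differences below was not tested.

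To see which cells supplied the ligand, Inhba was summed in every class. Its gene lies on chromosome 13 (GRCm38, 16011851 to 16031621, plus strand). The library labelled WT held 542 Inhba UMIs in all kept cells (12.9 CPM) and that labelled KO 1338 UMIs (28.3 CPM). Granulocytes, macrophages and monocytes carried most of those that fell in a class. Macrophages labelled WT had 10.7 CPM (228 UMIs, interval 9.39 to 12.2) and those labelled KO 23.0 CPM (452 UMIs, 20.9 to 25.2). The macrophage ratio was 2.14-fold, a log2 ratio of 1.10 with an exact counting interval of 0.87 to 1.34. Monocytes had 8.45 CPM labelled WT (38 UMIs, 5.98 to 11.6) and 51.2 CPM labelled KO (488 UMIs, 46.7 to 55.9). This was a log2 ratio of 2.60 (2.12 to 3.12), the larger of the ratios in these classes, and monocytes stood below macrophages in one library and above them in the other. The choice of genes named macrophages only, but the gates were set with earlier results of these data known. The monocyte ratio is therefore also given as a description.

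**Figure D1:**
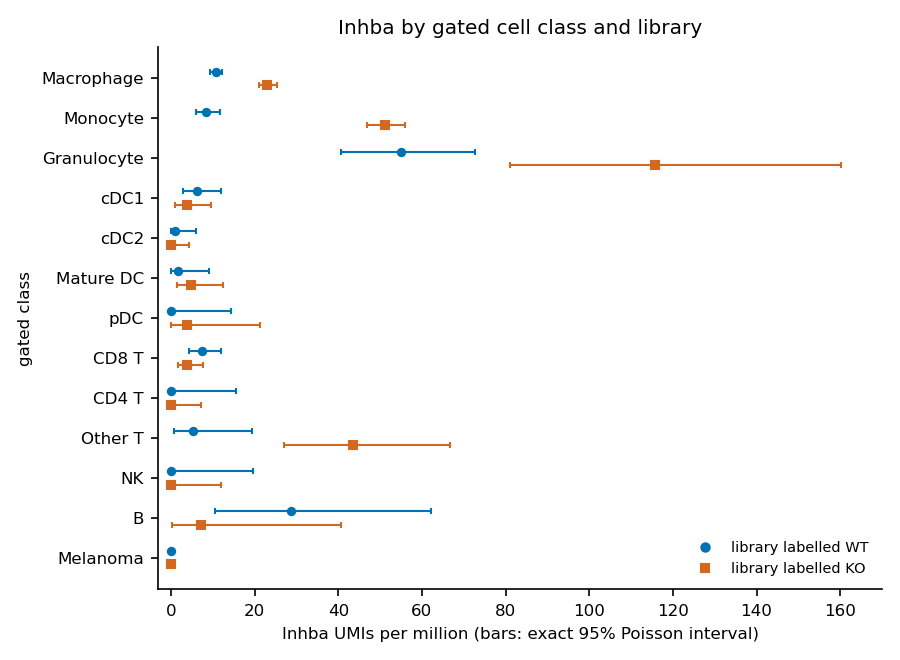
Inhba level in CPM (x axis) in the 13 gated classes with at least 50 cells in both libraries (y axis), with circles for the library labelled WT, squares for that labelled KO and bars for exact 95% Poisson intervals (counting error only). Granulocytes had the highest level in both libraries, monocytes labelled KO reached 51.2 CPM against 8.45 CPM labelled WT, and melanoma cells had no UMI.

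Granulocytes had the highest Inhba level of the 13 classes, 55.0 CPM labelled WT (49 UMIs, 40.7 to 72.8) and 116 CPM labelled KO (36 UMIs, 81.1 to 160). Of the 36 UMIs labelled KO, 18 lay in 1 of 242 cells, and without the cell with the most UMIs in each library the log2 ratio fell from 1.07 to 0.28. Melanoma cells, the deepest class, had no Inhba UMI in 136 cells labelled WT and none in 224 labelled KO. Of these, 18 and 38 lay in cluster 22, which was led by the fibroblast genes Col3a1, Col1a1 and Col1a2 and had a median of 1101 UMIs per cell, and 118 and 186 lay outside it. By a limit of 3 cells of the total, the full class allows a share of cells with a UMI of up to 2.21% and 1.34%, and the exact intervals reach 2.68% and 1.63%. No CD4 T or NK cell had one either. In the library labelled WT, neighbouring classes in the order of Inhba levels overlapped in their intervals throughout. In that labelled KO, granulocytes stood apart from monocytes only with the cell of 18 UMIs, since without it they had 58.8 CPM (34.8 to 92.9), and macrophages (23.0 CPM) stood below T cells with neither or both co-receptors (43.6 CPM, 21 UMIs of which 11 were in 1 cell).

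Few cells carried the transcript. Inhba was found in 58 of 1890 macrophages labelled WT (3.07%, exact interval 2.34 to 3.95) and in 135 of 2325 labelled KO (5.81%, 4.89 to 6.84). In monocytes the shares were 2.35% labelled WT (21 cells) and 5.86% labelled KO (134 cells). After each cell was thinned to 1000 UMIs to equalise depth, the shares were 1.24% and 2.50% in macrophages and 0.80% and 2.77% in monocytes, against 0 of 129 and 0 of 198 melanoma cells. The share was thus higher labelled KO at equal depth too. Positive macrophages held a median of 2 UMIs in both libraries, and 15 of them labelled WT and 32 labelled KO held 5 or more. In the library labelled WT, 17 of 21 positive monocytes, 20 of 29 positive granulocytes and 79 of all 164 positive cells held 1 UMI. The 10 macrophages with the most Inhba held 54.4% of the class's Inhba UMIs labelled WT and 29.4% labelled KO, so counting intervals are narrower than the spread between cells would give.

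The macrophage ratio depended on how cells were weighted. Thinned to 1000 UMIs, the log2 ratio was 0.43, under the 1.5-fold line of 0.58, and as a mean of per-cell CPM it was 0.65. When whole joint clusters were classed in place of single cells, it was 1.90. The monocyte ratio was 2.56 thinned and 2.36 as a per-cell mean, and over all settings it ranged from 1.57, with whole clusters, to 3.42, with Ly6c2 and Plac8 left out of the monocyte gate.

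Inhba was not spread evenly over the macrophages. Cycling macrophages had less Inhba than the rest in each library, at 2.22 CPM labelled WT and 9.80 CPM labelled KO against 18.2 and 31.1 CPM in non-cycling ones. Macrophages with an MHC class II level above the median had 8.70 CPM labelled WT (7.11 to 10.5) and 18.7 CPM labelled KO (16.3 to 21.3), and their log2 ratio was 1.10. Those at or below the median had 13.4 CPM labelled WT (11.1 to 15.9), while the level labelled KO was 30.2 CPM (26.4 to 34.4), and the log2 ratio was 1.17. With cells thinned to 1000 UMIs, the log2 ratios were 0.98 (0.12 to 1.91) above the median and 0.15 (−0.51 to 0.81) at or below it. In each library, before thinning, Inhba was thus higher in the macrophages with less MHC class II, and the intervals of these groups did not overlap.

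Joint clustering of both libraries, with all 66 pathway genes left out of the clustering, placed the transcript more sharply. Cluster 7, led by Mmp12 and with Thbs1, Gpnmb and Hilpda among its leading genes, held 235 Inhba UMIs in 219 cells labelled WT and 834 in 532 cells labelled KO, which is 43.4% and 62.3% of each library's Inhba. Its level was 168 CPM labelled WT (147 to 191) and 295 CPM labelled KO (275 to 316), and 27.9% and 32.0% of its cells had a UMI. Inhba itself stood among the 10 genes that led the cluster. Cluster 14, led by the granulocyte genes S100a9 and S100a8 with Cxcl2 and Lcn2, was the other cluster with a high level in both libraries, at 473 CPM labelled WT (407 to 545) and 371 CPM labelled KO (271 to 496). A second cluster led by S100a8 and S100a9, with Retnlg, had 8.11 and 50.6 CPM. Of cluster 14's 187 UMIs labelled WT, 94 lay in cells with no class, and 41 lay in 1 cell, without which the level labelled WT was 370 CPM. Among gated granulocytes, those with a Retnlg UMI had 31.9 CPM labelled WT (19.5 to 49.2) and 112 CPM labelled KO (72.5 to 165). Those without had 110 CPM (73.9 to 158) and 125 CPM (62.5 to 224), so the intervals of this split, chosen after the values were seen, overlapped in the library labelled KO. The 1 cell with 18 UMIs was among those with Retnlg, and without it their level labelled KO was 32.0 CPM (12.9 to 66.0), about that labelled WT.

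**Figure D2:**
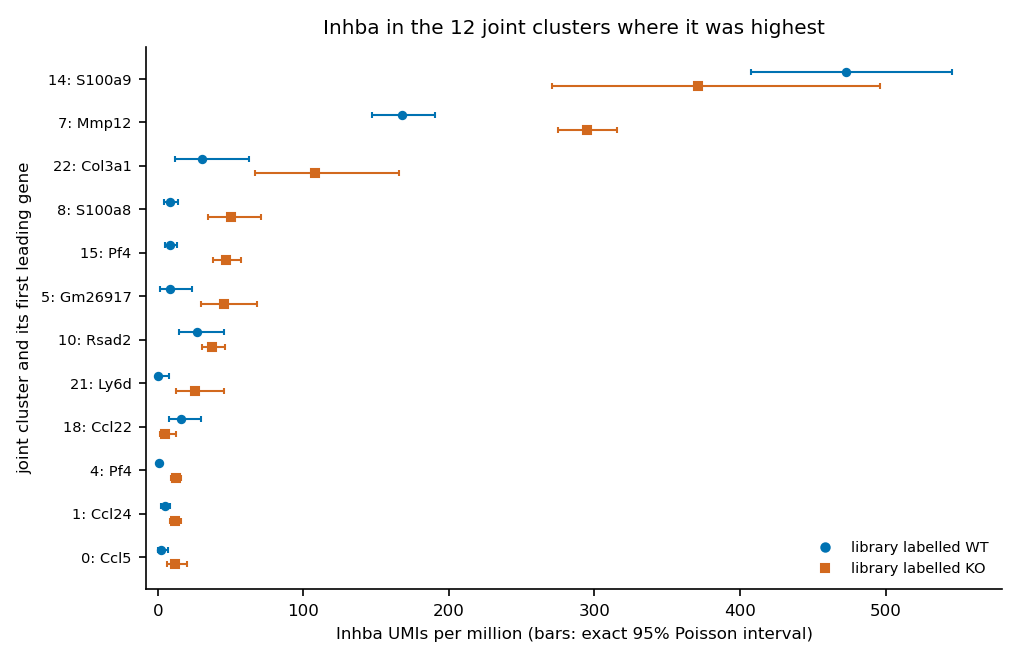
Inhba level in CPM (x axis) in the 12 joint clusters where it was highest in either library (y axis, each with its first leading gene), with circles for the library labelled WT, squares for that labelled KO and bars for exact 95% Poisson intervals. Clusters 14 and 7 stood above the others, and the intervals of the libraries overlapped in cluster 14.

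Macrophages inside cluster 7 differed little between the libraries, at 147 CPM labelled WT (140 cells) and 160 CPM labelled KO (258 cells), a log2 ratio of 0.12 (−0.17 to 0.42). Macrophages outside it had 3.67 and 10.1 CPM, a ratio of 1.47 (1.07 to 1.88). Monocytes inside cluster 7 had 127 CPM labelled WT (36 cells) and 404 CPM labelled KO (174 cells), and those outside had 2.79 and 17.4 CPM, with ratios of 1.67 (1.09 to 2.31) and 2.63 (1.79 to 3.62). Cluster 7 held 67.5% and 59.7% of the Inhba UMIs of macrophages labelled WT and KO, and 68.4% and 69.1% of those of monocytes. Of its cells in both libraries, 53.0% were macrophage-gated, so the values of these classes rest largely on the same cluster. The split by cluster was made after the values were seen.

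By the pattern of its level over the 13 classes in both libraries, Inhba was most like Ptgs2os2 (Pearson's r = 0.82), Cyp4f18 (0.81), Nos2 (0.80), Plk2 (0.78) and 4930430E12Rik (0.78) among 11834 genes. These are correlations of log2(CPM + 1) over 26 points that share 2 libraries and 1 gating. Nos2 encodes inducible nitric oxide synthase. Among the other 8 genes, Tgfbi was the most like Inhba (0.52).

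Tgfb1, which encodes the TGF-beta 1 ligand (chromosome 7, 25687002 to 25705077, plus strand), was found in every one of the 13 classes. Of these, monocytes led with 419 CPM labelled WT (400 to 438) and 458 CPM labelled KO (445 to 472), above macrophages with 272 CPM (265 to 279) and 304 CPM (296 to 312). The intervals of monocytes and macrophages did not overlap in either library. Nonclassical monocytes, too few to be among the 13 classes, held 41 and 117 Tgfb1 UMIs, of 83342 and 242648 UMIs in the class. Their level was above that of monocytes in both libraries, though on few UMIs. Lymphocytes lay between 147 CPM in CD8 T cells labelled WT and 272 CPM in NK cells labelled WT. Mature dendritic cells, at 44.4 and 60.1 CPM, and melanoma cells, at 20.4 and 20.1 CPM, were lowest in both libraries. The log2 ratio of the libraries was 0.16 in macrophages (0.11 to 0.21) and 0.13 in monocytes (0.05 to 0.21), so the counting intervals left out 0 but the ratios were far under 1.5-fold. A share of 79.8% of macrophages labelled WT and 76.6% of those labelled KO had a Tgfb1 UMI, and 24.7% and 26.6% after thinning.

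Tgfbi, a secreted matrix protein named for its induction by TGF-beta (chromosome 13, 56609523 to 56639562, plus strand), was a gene of the myeloid classes. Monocytes had 1514 CPM labelled WT (1478 to 1550) and 1293 CPM labelled KO (1271 to 1316), and macrophages 654 CPM (643 to 665) and 664 CPM (653 to 676). Of the 13 classes, granulocytes followed with 566 and 576 CPM, then cDC2 with 441 and 357 CPM and cDC1 with 320 and 288 CPM. Monocytes stood apart from macrophages in both libraries, whereas macrophages and granulocytes labelled KO overlapped in their intervals. The log2 ratio was 0.02 in macrophages (−0.01 to 0.06) and −0.23 in monocytes (−0.27 to −0.18).

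In CD8 T cells Tgfbi was at 137 CPM labelled WT (297 UMIs, 122 to 154) and 52.9 CPM labelled KO (109 UMIs, 43.5 to 63.8), a log2 ratio of −1.38, and 31 of the UMIs labelled WT lay in 1 cell. Macrophage markers summed to 868 CPM in CD8 T cells labelled WT and 455 CPM in those labelled KO, and monocyte markers to 1788 and 1565 CPM. Lyz2 had 800 and 152 CPM, but its locus carries the Cre, and it was also lower in macrophages labelled KO. The part of these transcripts in the Tgfbi values was not tested. In T cells with neither or both co-receptors Tgfbi was also lower labelled KO, at 161 and 64.4 CPM. Their macrophage markers summed to 836 and 615 CPM and their monocyte markers to 1066 and 984 CPM.

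**Figure D3:**
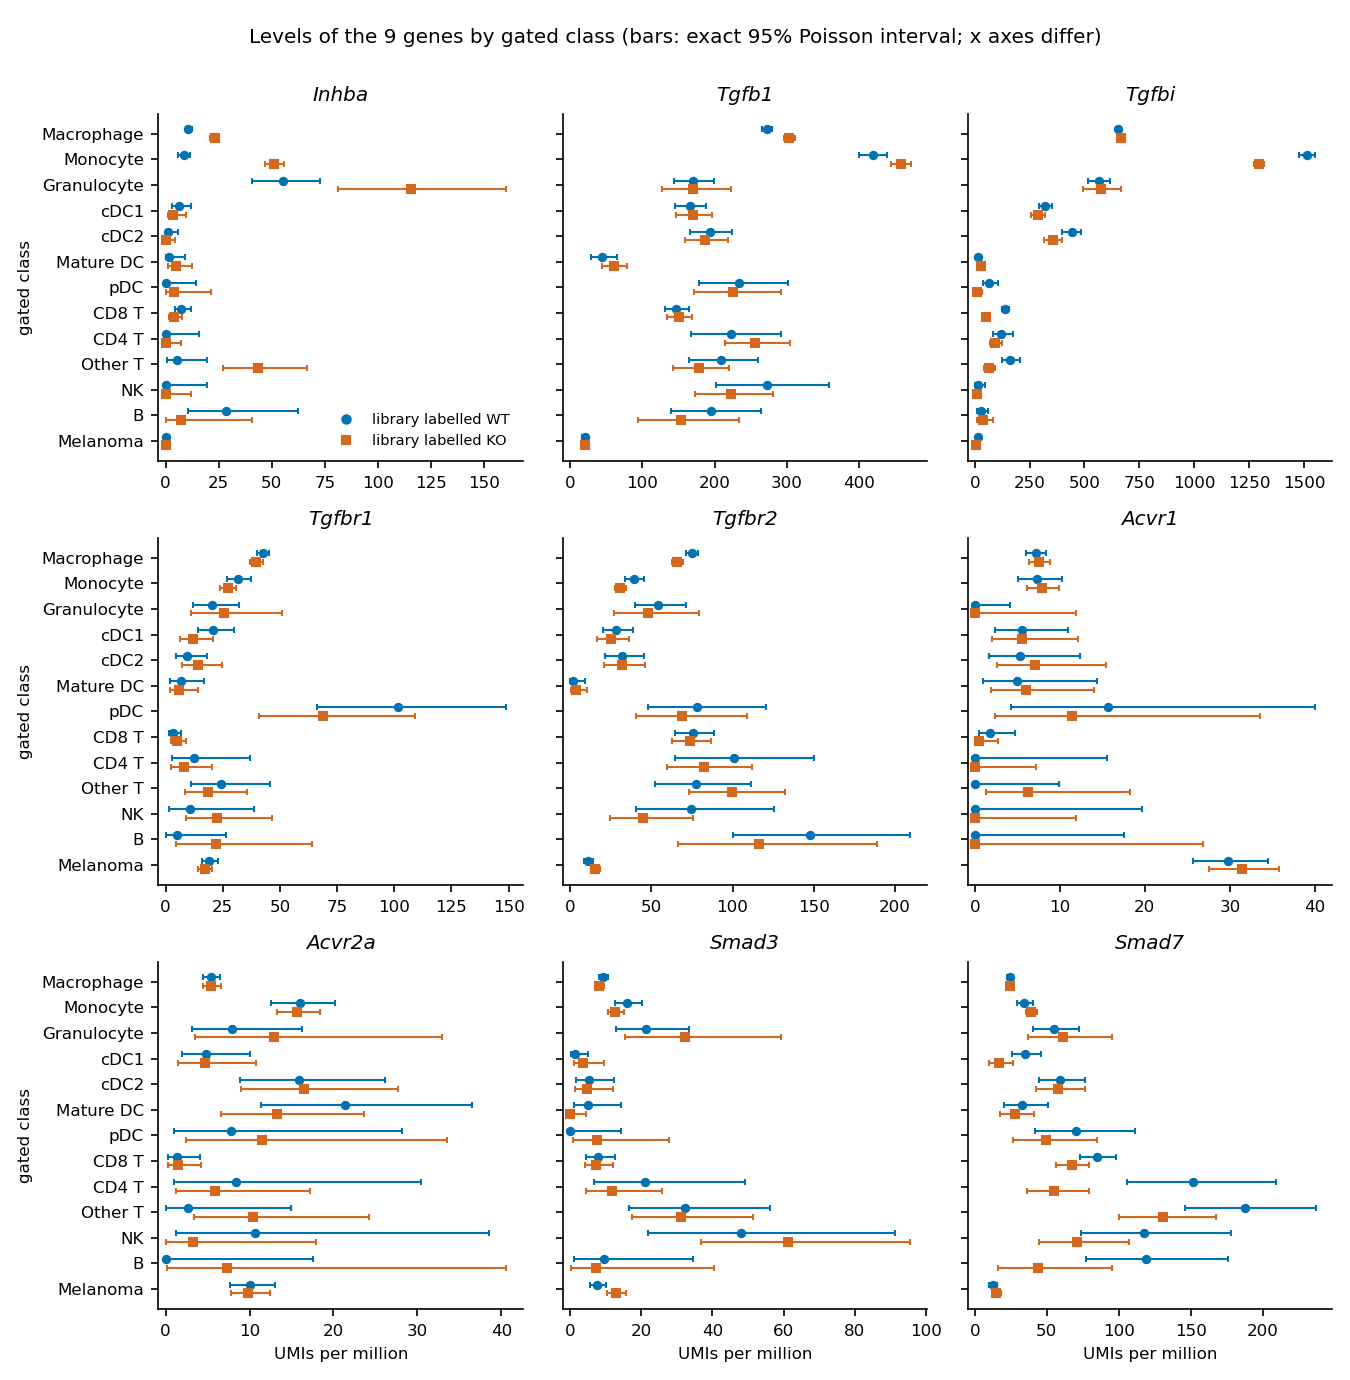
Levels of the 9 genes in CPM (x axes, which differ in range) in the 13 gated classes (y axes), with circles for the library labelled WT, squares for that labelled KO and bars for exact 95% Poisson intervals. Tgfb1 and Tgfbi were highest in monocytes, Acvr1 in melanoma cells, Smad7 in T cells with neither or both co-receptors, and Inhba in granulocytes.

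Among the receptors, Tgfbr1, the type I TGF-beta receptor (chromosome 4, 47353222 to 47414931, plus strand), was highest, among the 13 classes with at least 50 cells in both libraries, in plasmacytoid dendritic cells, at 102 CPM labelled WT (26 UMIs, 66.3 to 149) and 68.9 CPM labelled KO (18 UMIs, 40.8 to 109), though the latter overlapped the interval of macrophages. Macrophages had 42.5 and 39.6 CPM and monocytes 31.8 and 27.2 CPM, with intervals that did not overlap within either library. CD8 T cells had 3.24 CPM labelled WT (7 UMIs) and 4.86 CPM labelled KO (10 UMIs). Nonclassical monocytes, too few to be among the 13 classes (30 cells labelled WT and 86 labelled KO), had higher levels of 120 and 94.8 CPM on 10 and 23 UMIs.

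Tgfbr2, the type II TGF-beta receptor (chromosome 9, 116084293 to 116175360, minus strand), was spread differently. Among the classes with at least 50 cells in both libraries, B cells had the highest values. These were 148 CPM labelled WT (31 UMIs, 100 to 210) and 116 CPM labelled KO (16 UMIs, 66.6 to 189). The intervals overlapped those of the next class in each library. CD8 T cells had 75.9 and 73.8 CPM, close to macrophages with 75.2 and 66.0 CPM. Unlike Tgfbr1, it was therefore as high in CD8 T cells as in macrophages within the counting intervals. Mature dendritic cells had 1 UMI labelled WT and 3 labelled KO. Fibroblast-gated cells were too few to be among the classes above, with 9 cells labelled WT and 14 labelled KO. They held 47 and 88 Tgfbr2 UMIs, of 147356 and 146928 UMIs in the class. Their level was above that of B cells in both libraries, though on few cells. In macrophages the log2 ratio was −0.19 (−0.29 to −0.08) and in monocytes −0.35 (−0.62 to −0.07), from 39.3 to 30.9 CPM. After thinning, the monocyte ratio was 0.09, so its direction was not kept.

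The activin receptors were sparse. Acvr1, a type I receptor (chromosome 2, 58388644 to 58567157, minus strand), was highest in melanoma cells, at 29.8 CPM labelled WT (180 UMIs, 25.6 to 34.5) and 31.5 CPM labelled KO (236 UMIs, 27.6 to 35.8), with intervals that overlapped those of plasmacytoid dendritic cells. Macrophages had 7.16 and 7.59 CPM, and granulocytes, B, CD4 T and NK cells had no UMI in either library. Acvr2a, a type II receptor that binds activin (chromosome 2, 48814109 to 48903269, plus strand), was at 16.0 and 15.6 CPM in monocytes, 15.9 and 16.5 CPM in cDC2 and 21.4 and 13.2 CPM in mature dendritic cells. Macrophages had 5.37 CPM labelled WT (114 UMIs) and 5.45 CPM labelled KO (107 UMIs), below monocytes in both libraries. Acvr1b, the type I receptor through which activin A is known to signal and a gene of the wider list, was at 15.6 and 14.4 CPM in macrophages and 31.1 and 26.1 CPM in monocytes.

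Smad3, the transducing Smad (chromosome 9, 63646767 to 63757994, minus strand), was highest in NK cells, at 48.0 CPM labelled WT (9 UMIs, 22.0 to 91.2) and 61.2 CPM labelled KO (19 UMIs, 36.9 to 95.6), without standing apart from granulocytes or from T cells with neither or both co-receptors. Macrophages had 9.23 and 8.05 CPM and monocytes 16.0 and 12.7 CPM, with log2 ratios of −0.20 (−0.51 to 0.11) and −0.33 (−0.77 to 0.11). Cluster 14 had 104 CPM of Smad3 labelled WT (41 UMIs) and 115 CPM labelled KO (14 UMIs), against 19 and 10 UMIs in all gated granulocytes, so most of its Smad3 UMIs labelled WT lay outside the granulocyte gate. Among gated granulocytes the intervals with and without a Retnlg UMI overlapped, at 19.1 and 26.6 CPM labelled WT and 26.9 and 45.5 CPM labelled KO.

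Smad7, the inhibitory Smad, had higher values in T, B and NK cells than in the other classes of the library labelled WT. The interval of CD8 T cells (85.2 CPM, 73.3 to 98.4) overlapped that of plasmacytoid dendritic cells (70.3 CPM, 41.7 to 111). In that labelled KO, granulocytes (61.1 CPM, 36.8 to 95.4) and cDC2 (57.7 CPM, 42.7 to 76.3) had higher values than CD4 T and B cells, with intervals that overlapped. T cells with neither or both co-receptors had 187 CPM labelled WT (146 to 237) and 131 CPM labelled KO (101 to 167), and NK cells had 117 and 70.9 CPM, neighbours in this order overlapping in their intervals. Macrophages had 24.4 CPM (519 UMIs) and 24.5 CPM (481 UMIs), a log2 ratio of 0.00 (−0.18 to 0.18), and monocytes 34.5 and 39.3 CPM. CD4 T cells had 151 CPM labelled WT (36 UMIs, 106 to 210) and 55.1 CPM labelled KO (28 UMIs, 36.6 to 79.6), on 70 and 109 cells, and B cells 119 and 43.7 CPM on 25 and 6 UMIs. In cluster 7, where Inhba was high, Smad7 was at 97.1 and 78.8 CPM.

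To compare the libraries over all 9 genes, a gene was counted where it reached 10 CPM in either library and its CPM differed 1.5-fold or more. In macrophages 1 of the 6 genes at that level, Inhba, passed, against 1.73% of 7680 genes. The genes were chosen on this contrast, so nothing is read from the count. In monocytes Inhba was also the 1 of 8 that passed (4.72% of 7435 genes), but it reached 10 CPM in the library labelled KO only. In macrophages and monocytes summed together it was 1 of 7 (3.6% of genes), a sum that holds the macrophage values that chose the genes. Nothing is read from these counts either. The median log2 ratio was 0.01 over the 6 genes in macrophages and −0.13 over the 8 in monocytes, beside 0.02 and −0.0039 over all genes. The remaining genes at that level stayed within 1.5-fold in both classes as counted. Thinned to 1000 UMIs per cell, Smad7 (log2 ratio 0.75) and Smad3 (−0.90) passed that line in monocytes, and Acvr2a, under 10 CPM in macrophages, had −0.92 there.

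**Figure D4:**
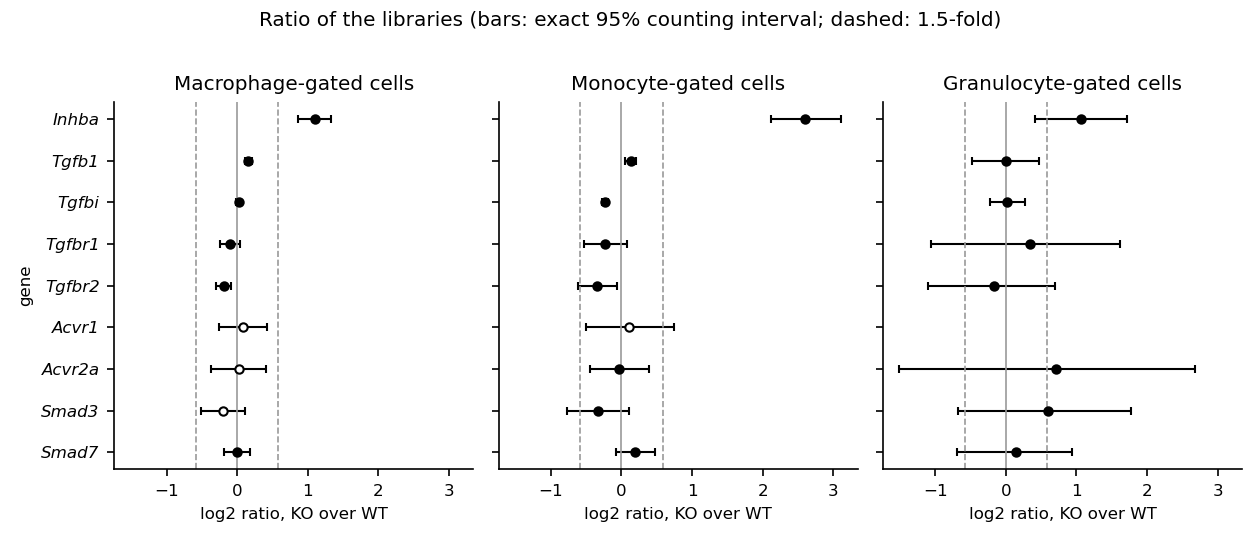
Log2 ratio of the library labelled KO over that labelled WT (x axes) for each gene (y axis) in macrophage-gated, monocyte-gated and granulocyte-gated cells, with bars for exact 95% counting intervals, dashed lines at 1.5-fold and open circles for genes under 10 CPM in both libraries (Acvr1 had no UMI in granulocytes). Inhba alone lay past the line in macrophages (1.10) and monocytes (2.60), and the granulocyte intervals were wide.

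The other classes were smaller, and larger shares of all genes passed. In granulocytes Inhba, Acvr2a and Smad3 were past 1.5-fold, 3 of 8 genes against 37.7% of all. Acvr2a reached 10 CPM in the library labelled KO only, on 4 UMIs, Inhba fell to a log2 ratio of 0.28 without the top cells, and Smad3 went from 0.59 to between −0.98 and −0.0042 under 3 alternatives. Tgfbi was the 1 of 4 in CD8 T cells (12.6% of all genes), and 3 of 8 passed in T cells with neither or both co-receptors (39.3%). These 3 were Inhba, Acvr2a and Tgfbi. Of them, Inhba (5.36 and 43.6 CPM) and Acvr2a (2.68 and 10.4 CPM) reached 10 CPM in the library labelled KO only. In cDC2 0 of 6 passed (22.2%), and in mature dendritic cells 2 of 4 (27.9%), Tgfbi higher labelled KO on 10 and 22 UMIs and Acvr2a lower on 13 and 11. In melanoma cells 2 of 8 passed (6.1%), Smad3 at 7.45 and 12.8 CPM and Tgfbi at 13.1 and 5.74 CPM, but both reached 10 CPM in 1 library only, so nothing is read from this count. The counts in granulocytes and in T cells with neither or both co-receptors were near the share of all genes, and nothing is read from them.

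The wider pathway was read from a list of 66 genes in 6 roles that includes the 9. In macrophages 35 reached 10 CPM, of which 1 was past 1.5-fold, beside 1.73% of all genes. That gene was Inhba, on which the choice of genes rests. The largest ratios after Inhba were those of Nrros, which tethers latent TGF-beta on myeloid cells (224 CPM labelled WT and 296 labelled KO, log2 ratio 0.41), Gdf15, a stress-induced ligand (61.9 and 79.7 CPM, 0.36), and Id2, a transcriptional inhibitor (422 and 505 CPM, 0.26). The lowest were Gdf3, a ligand of the family (13.3 and 9.37 CPM, −0.50), Pmepa1, a TGF-beta target that restrains Smads (20.1 and 14.4 CPM, −0.48), Skil, a Smad corepressor (54.5 and 46.5 CPM, −0.23) and Id3 (11.7 and 10.2 CPM, −0.20). In monocytes 36 reached 10 CPM, of which Inhba was higher and Pmepa1 lower past 1.5-fold, at 10.2 CPM labelled WT and 6.61 CPM labelled KO on 46 and 63 UMIs. Both reached 10 CPM in 1 library only, so nothing is read from this count of 2 beside the 4.72% of all genes.

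**Figure D5:**
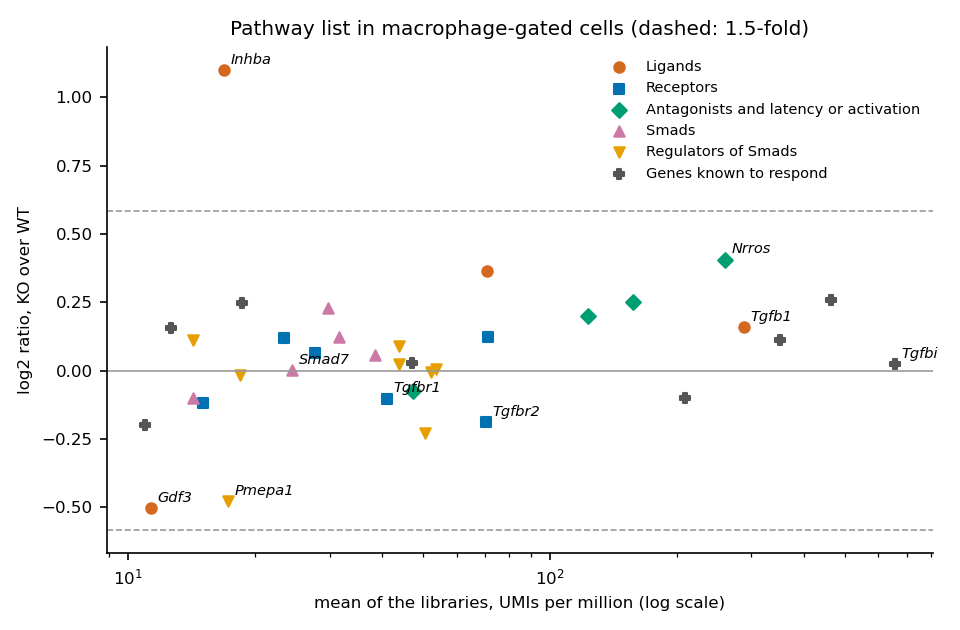
Log2 ratio of the library labelled KO over that labelled WT (y axis) against the mean level in CPM (x axis, log scale) for the 35 genes of the pathway list at 10 CPM or more in macrophage-gated cells, coloured by role, with dashed lines at 1.5-fold. Inhba, at 1.10, was the only gene past the line, and Gdf3 (−0.50) and Pmepa1 (−0.48) were the lowest.

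Few UMIs of 2 subunits that pair with beta A or of activin's antagonists Fst and Fstl3 were counted in macrophages. Inhbb and Inha, which encode an activin beta subunit and the inhibin alpha subunit, had no UMI in either library, and follistatin (Fst) had 2 UMIs labelled WT and 0 labelled KO. Fstl3, a related antagonist, had 9 and 7 UMIs. By role, 4 of 12 ligands, 6 of 12 receptors, 5 of 8 Smads and 8 of 10 regulators of Smads reached 10 CPM. Thbs1, which encodes an activator of latent TGF-beta and was among the genes leading cluster 7, had 114 CPM labelled WT and 131 CPM labelled KO in macrophages.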

How the data were processed

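Cell Ranger 4.0.0 wrote the UMI counts, per the file headers, and the labels name the mm10 genome. The authors deposited whole-number counts with no normalisation. Cells with at least 200 genes and at most 10% mitochondrial UMIs were kept. Scrublet's threshold marked 1 cell per library, so the highest scores were removed at 0.8% per 1000 cells (256 labelled WT, 532 labelled KO). A cell took the class with the highest scaled marker score, with at least 3 markers detected and a lead of 1.25 times over other lineages. For each class of each library, UMIs were added up per gene and divided by the class total. Clusters came from leidenalg 0.10.2 (scanpy 1.11.5, 30 components, 20 neighbours, resolution 1). Ratios had no pseudocount. Intervals were exact Poisson, Clopper-Pearson and conditional binomial ones. Only the last, used for ratios, were run on simulated data. Those counts were drawn as Poisson, so the check says nothing of the spread between cells. Alternatives changed filters, doublets, weighting, gating, scaling, floor and fold. Each of the 9 genes was named in every class, list genes by the 4 highest and 4 lowest macrophage ratios, and like genes by correlation. The genes, lists and gates were chosen with earlier results of these data known. The macrophage and monocyte sum and the splits by Retnlg and by clusters 7 and 22, and leaving out the top cells of clusters 7 and 14 and of granulocytes, were added after seeing values. A split of macrophages and monocytes by 1 further gene is not reported here.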

Additional observations from a re-analysis of the deposited data

Results flagged for a closer look

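Cells outside the gated classes carried much of the Inhba signal. The 510 cells labelled WT and 856 labelled KO with too few detected markers for a class had 157 and 269 Inhba UMIs, which is 167 and 189 CPM and 29.0% and 20.1% of each library's Inhba. Of these UMIs, 94 labelled WT and 29 labelled KO lay in cluster 14, and 45 and 207 in cluster 7. Cells with markers of more than 1 lineage had 19.2 CPM labelled WT and 32.6 CPM labelled KO.

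The clusters with the most Inhba had log2 ratios, of the library labelled KO over that labelled WT, of 0.81 (0.60 to 1.03) in cluster 7 and −0.35 (−0.85 to 0.13) in cluster 14. The difference between them was not tested, and the interval in cluster 14 includes 0. A single cell labelled WT held 41 of the 187 UMIs of cluster 14. Without it the ratio there was 0.0019 (−0.51 to 0.49), and without the cell with the most Inhba in each library it was −0.47 (−1.07 to 0.09).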

How the results depend on the processing

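No paired analysis was possible because each genotype had 1 library. Among alternatives, 352 values of single genes or shares stayed within the counting interval or fold side of the main value, 95 moved and 3 reversed. More ratios than these 3 changed sign. Over all settings Acvr2a in macrophages ranged from −0.92 to 0.41 and Tgfbr2 in monocytes from −0.49 to 0.09, among others. The log2 ratio of Inhba in macrophages was 1.10, and 1.90 with classes from joint clusters, 0.43 thinned and 0.65 as a per-cell mean. In macrophages and monocytes together it was 1.64, and 1.11 thinned and 1.12 as a per-cell mean. In granulocytes Smad3 reversed from 0.59 to −0.0042 with joint clusters, −0.31 thinned and −0.98 with the stricter filter. Counts of the 9 genes past 1.5-fold changed as follows. Thinning gave 0 in macrophages, 3 in monocytes, 2 in cDC2 and 7 in melanoma cells. Joint clusters gave 2 in CD8 T cells, 1 in T cells with neither or both co-receptors, 1 in mature dendritic cells and 0 in granulocytes. A fold of 2 gave 1 in granulocytes, 0 in mature dendritic cells and 1 in melanoma cells. No level floor gave 3 in CD8 T cells, 5 in mature dendritic cells and 1 in cDC2. Without the top cell, granulocytes had 0, and mature dendritic cells and cDC2 had 1 each. The per-cell mean gave 1 in granulocytes, cDC2 and mature dendritic cells. The larger lead and the monocyte gate without Ly6c2 and Plac8 each gave 1 in granulocytes and 1 in cDC2, the stricter filter gave 1 in cDC2, and setting the median ratio to 0 gave 1 in granulocytes. The pathway list in macrophages had 2 genes past the fold with joint clusters, with doublets kept or as a per-cell mean, and 12 with no floor. A gate needing 2 markers, chosen after seeing the data, gave 2 in T cells with neither or both co-receptors. The cause of these shifts was not tested. Outside macrophages, monocytes and melanoma cells, depth limits Acvr1, Acvr2a and Smad3 most, which had at most 19 UMIs per library in each of the other 10 classes.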
